A study of Homo sapiens with 9 samples.

Results

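The SR proteins and the hnRNPs are the main families of RNA-binding proteins that decide which exons are kept in a transcript. All protein-coding genes of the deposited count table whose symbol starts with SRSF or HNRNP were taken, which gave 39 of the 58735 listed genes (12 SRSF and 27 HNRNP), among 19951 listed as protein-coding. The counts came from RNA-seq of SKOV3, a human ovarian cancer cell line, in 3 groups of 3 libraries. The WT group expressed WT CDK9 under basal conditions. The ALK inhibitor group expressed the same WT CDK9 and received an ALK inhibitor for 24 h, with neither the compound nor its dose named for this experiment. The Tyr19Phe group expressed CDK9 with phenylalanine in place of tyrosine at residue Tyr19, which the study describes as an ALK substrate, and received no inhibitor. CDK9 is the kinase subunit of P-TEFb, the complex that releases paused RNA polymerase II into elongation. All groups were stable lines carrying an introduced CDK9, and gene counts do not separate this transcript from the endogenous one. In other experiments the study put these CDK9 forms back into SKOV3 cells depleted of CDK9. Its account of the RNA-seq does not say whether the sequenced lines were depleted. The Tyr19Phe substitution and the cell population that carries it cannot be told apart, because each CDK9 form is represented by its own line. Nothing in the labels says that the libraries of a group came from separate cultures, so p-values measure the spread between these libraries, which may be technical.

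SR proteins carry RNA recognition motifs and a tail rich in arginine and serine, bind exonic enhancers and recruit the splicing machinery. They are phosphorylated by kinases of the SRPK, CLK and DYRK families, and the import receptor TNPO3 brings them into the nucleus. The hnRNPs coat nascent RNA and often repress exons, and several of them also act in RNA export, stability and translation. Many genes of both families limit their own RNA through poison exons, whose inclusion sends the transcript to nonsense-mediated decay. GENCODE release 44 annotates 126 transcripts of the nonsense-mediated decay type in 27 of the 39 genes, 35 of them in HNRNPA2B1 and 18 in HNRNPA1. Whether these carry poison exons was not examined. A gene-level count adds productive and decay transcripts together, so the values below are not levels of productive mRNA, and splicing itself was not measured.

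Library totals ranged from 18169050 to 29320184 counts, with the 3 Tyr19Phe libraries the deepest. Inhibitor replicate 2 and Tyr19Phe replicate 3 had the fewest genes detected in their groups, 19944 against 21911 and 21915, and 20635 against 22609 and 22744. CDK9 itself stood at 48.6 ± 1.03 CPM (counts per 1000000, scaled by TMM) in WT CDK9 cells, 45.6 ± 1.77 CPM with the inhibitor and 55.0 ± 3.94 CPM in Tyr19Phe CDK9 cells (mean ± SD, n = 3). ALK had between 0 and 5 counts in every library. The 5 epithelial and SKOV3 markers together lay between 3435 and 3554 CPM in WT CDK9 cells, between 4369 and 4401 CPM with the inhibitor and between 3352 and 3535 CPM with Tyr19Phe. Of these, KRT19, EPCAM and ERBB2 were lower and KRT8 and KRT18 higher in Tyr19Phe CDK9 cells. Leukocyte and endothelial markers summed to at most 0.83 and 1.39 CPM. The 4 fibroblast markers, nearly all COL1A1, summed to 103 to 107 CPM in WT CDK9 cells, 115 to 149 CPM with the inhibitor and 31.0 to 45.2 CPM with Tyr19Phe. The part of these marker differences in the values below was not tested.

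Of the 39 genes, 34 passed the filter on low counts and were tested, which are all 12 SRSF genes and 22 HNRNP genes. HNRNPCL1, HNRNPCL2, HNRNPCL3 and HNRNPCL4, relatives of HNRNPC, had 0 counts in every library. The readthrough transcript HNRNPUL2-BSCL2 had between 0 and 20 counts. The hnRNP and SR genes, untested ones included, took 0.845% and 0.203% of the counts in WT CDK9 cells. Their sums were 8446 ± 189 and 2030 ± 36.5 CPM in WT CDK9 cells, 8013 ± 104 and 1926 ± 40.2 CPM with the inhibitor, and 7777 ± 289 and 1916 ± 55.9 CPM with Tyr19Phe (mean ± SD, n = 3). In CPM per kilobase of listed gene length, HNRNPA1 was highest in WT CDK9 cells at 195 ± 2.97, followed by HNRNPK at 153 ± 7.53, HNRNPA2B1 at 113 ± 4.44 and HNRNPAB at 103 ± 1.78. SRSF2 led the SR proteins at 89.5 ± 4.99, next to HNRNPA3 at 92.3 ± 3.75, and the SD ranges of that pair overlapped. HNRNPLL (8.67 ± 0.0816), SRSF8, SRSF12, HNRNPA1P48 and HNRNPA1L2 (2.33 ± 0.244) closed the order. When the length of the canonical transcript replaced the listed length, HNRNPA2B1 came first, and 7 of the 10 highest genes were shared with the order by listed length. When CPM alone was used, 6 of 10 were shared.

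**Figure D1:**
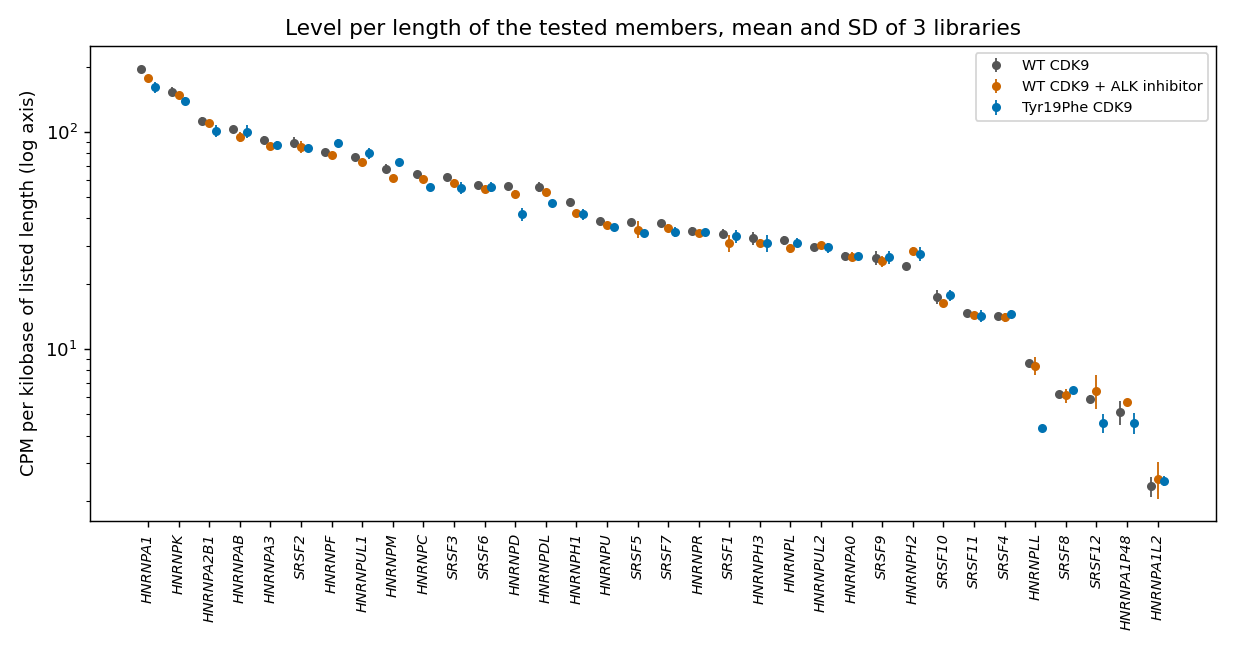
Level of the 34 tested SR protein and hnRNP genes, in CPM per kilobase of listed gene length on a log axis, ordered by the WT CDK9 mean, with points for the mean and bars for the SD of 3 libraries in each group. The order spans HNRNPA1 at 195 to HNRNPA1L2 at 2.33 in WT CDK9 cells, and HNRNPLL in Tyr19Phe CDK9 cells sits apart from its other groups.

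The comparison of Tyr19Phe with WT CDK9 cells asks how the genes stand when the ALK target site of CDK9 is lost. Of the 34 genes, 11 fell and 1 rose at an adjusted p under 0.05 by edgeR's quasi-likelihood test, adjusted over all 16350 genes tested. Among all tested genes 10.4% fell and 7.61% rose, and among the 4795 with at least 50 CPM 1004 fell and 628 rose. The genes that fell were 8 hnRNPs (HNRNPLL, HNRNPD, HNRNPA1, HNRNPDL, HNRNPC, HNRNPH1, HNRNPA2B1 and HNRNPK) and 3 SR proteins (SRSF3, SRSF5 and SRSF12), and HNRNPF rose. Each fit that left out 1 library gave a smaller number of falls, between 7 and 10, with 7 without WT CDK9 replicate 1. Below 0 were 25 of the 34 and above it 9, where all tested genes gave 49.4% and 50.6%. Of those with at least 50 CPM 55.9% were below. The median log2 fold change of the 34 was -0.06, beside 0.0035 for all tested genes and -0.03 for those with at least 50 CPM. The 3 libraries lay wholly below the WT CDK9 libraries for 13 genes and wholly above for 3, where all tested genes gave 17.2% and 15.4%. Among the 4795 with at least 50 CPM, 1390 lay wholly below and 926 wholly above. An exact two-sided permutation test of 3 against 3 libraries cannot give a p below 0.1, so the adjusted p-values rest on the model across all genes. In bulk libraries, fewer cells carrying a transcript and less of it per cell cannot be told apart.

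**Figure D2:**
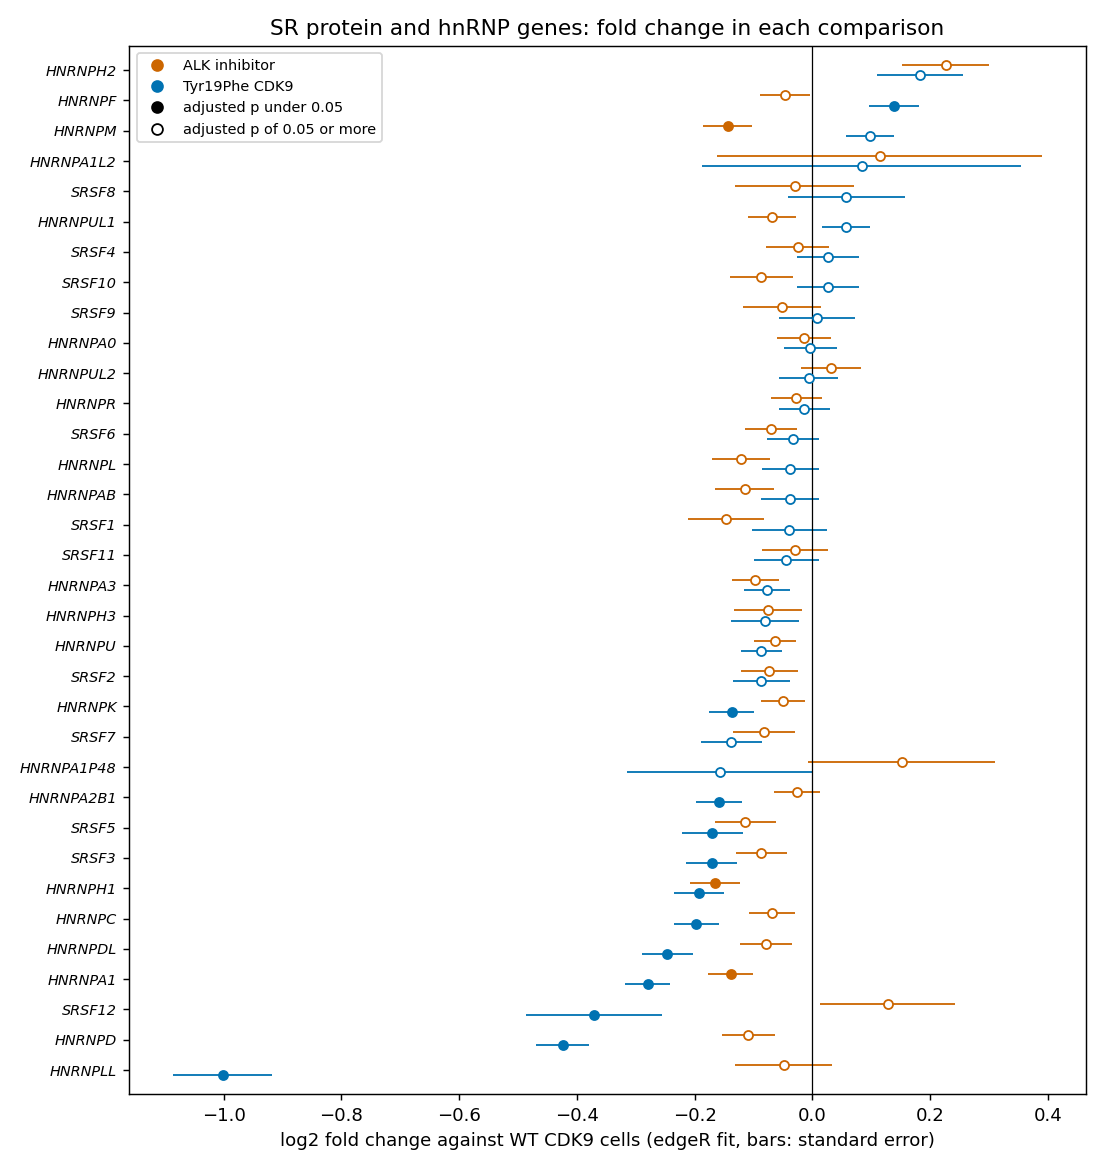
Fitted log2 fold change against WT CDK9 cells for each of the 34 tested genes with the ALK inhibitor (orange) and with Tyr19Phe CDK9 (blue), bars showing the standard error, filled points an adjusted p under 0.05. HNRNPLL at -1.002 lies apart from the other genes in the Tyr19Phe comparison, and the inhibitor values lie between -0.17 and 0.23.

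HNRNPLL, known from regulated exon skipping in lymphocytes and a paralogue of HNRNPL, had the largest difference of the 34 genes. It lies at chr2:38561978-38603586 on the minus strand (hg38). Its level was 50.8, 51.5 and 51.7 CPM in the 3 WT CDK9 libraries, 47.9, 55.0 and 46.0 CPM with the inhibitor, and 26.5, 25.3 and 25.1 CPM with Tyr19Phe. The Tyr19Phe libraries lay far below both other groups, which overlapped each other. The log2 fold change against WT CDK9 was -1.002 (SE 0.084, edgeR adjusted p = 1.19e-10) with Tyr19Phe and -0.05 (SE 0.083, adjusted p = 0.870) with the inhibitor. Its paralogue HNRNPL gave -0.04 with Tyr19Phe (SE 0.049, adjusted p = 0.678). The 41 other tested genes within 5 Mb, SRSF7 included, had a median of -0.05 in the same comparison, with 8 called lower and 4 higher. SRSF7, an SR protein gene 140 kb away, gave -0.14 (SE 0.052, adjusted p = 0.0633). No 50-base window of the HNRNPLL canonical transcript occurred in a transcript of another gene, although an antisense gene, AC011247.2, overlaps it.

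The 250 bases before the transcription starts of 4 of the genes are shown, from RefSeq on GRCh38.p14 and each read 5′ to 3′ on the strand of its gene: HNRNPLL for the largest fall, HNRNPD and HNRNPDL as a neighbouring pair that fell together, and HNRNPF as the gene that rose. All 4 are on the minus strand. Capitals mark matches on either strand to the CCAAT box (CCAAT), the GC box (GGGCGG), the E box (CACGTG), an ETS site (CCGGAA), the TATA box (TATAAA) and the cAMP response element (TGACGTCA), none of which contains another. The windows are chr2:38602929-38603178, chr4:82373992-82374241, chr4:82430226-82430475 and chr10:43408858-43409107. The gene spans listed with the counts contain the whole windows of HNRNPLL, HNRNPD and HNRNPF and most of that of HNRNPDL. The windows lie before the RefSeq starts only, and may include sequence transcribed from other starts.
HNRNPLL: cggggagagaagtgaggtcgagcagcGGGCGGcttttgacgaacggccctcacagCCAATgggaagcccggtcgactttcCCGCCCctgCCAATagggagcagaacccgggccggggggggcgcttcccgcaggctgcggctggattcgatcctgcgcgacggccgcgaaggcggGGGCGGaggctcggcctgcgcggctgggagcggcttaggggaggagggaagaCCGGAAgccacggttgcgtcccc
HNRNPD: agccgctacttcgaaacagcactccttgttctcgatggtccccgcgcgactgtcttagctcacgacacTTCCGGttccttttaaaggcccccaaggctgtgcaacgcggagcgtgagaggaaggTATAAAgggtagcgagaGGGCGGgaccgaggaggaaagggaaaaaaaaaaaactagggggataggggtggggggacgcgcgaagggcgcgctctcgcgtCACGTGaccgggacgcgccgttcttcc
HNRNPDL: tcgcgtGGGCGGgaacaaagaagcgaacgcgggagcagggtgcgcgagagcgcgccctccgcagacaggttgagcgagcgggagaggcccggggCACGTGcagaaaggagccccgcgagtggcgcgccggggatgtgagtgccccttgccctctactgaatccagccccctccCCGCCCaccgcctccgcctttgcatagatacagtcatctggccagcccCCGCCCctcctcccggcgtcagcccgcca
HNRNPF: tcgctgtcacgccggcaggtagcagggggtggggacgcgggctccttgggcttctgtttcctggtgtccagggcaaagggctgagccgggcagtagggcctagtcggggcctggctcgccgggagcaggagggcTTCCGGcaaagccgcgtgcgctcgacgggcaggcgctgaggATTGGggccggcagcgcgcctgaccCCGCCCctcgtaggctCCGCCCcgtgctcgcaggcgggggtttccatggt

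The HNRNPLL window held 2 CCAAT boxes, 3 GC boxes and 1 ETS site, and that of HNRNPF 1 CCAAT box, 2 GC boxes and 1 ETS site. HNRNPD and HNRNPDL each held an E box, the element read by the MYC and USF families, with 1 and 3 GC boxes. HNRNPD also had a TATA box and an ETS site. Across the 31 tested genes with a RefSeq window, 6 held an E box (19.4%), against 6.35% of all 35114 windows and 7.37% of the 22197 of protein-coding genes. These 6 were HNRNPA3, HNRNPD, HNRNPDL, HNRNPH2, HNRNPH3 and HNRNPM, of which HNRNPD and HNRNPDL fell with Tyr19Phe and HNRNPM fell with the inhibitor. Of all 34 tested genes 11 and 3 fell in these comparisons, so the calls among the 6 are no result about the E box. The CCAAT box was in 48.4% of the 31 windows and 32.7% of the protein-coding ones, the GC box in 64.5% and 53.7%, the ETS site in 22.6% and 17.9%, and the TATA box in 16.1% and 9.01%. The cAMP response element was in 0 of the 31 and in 2.01% of the protein-coding windows. The median GC content was 65.6% in the 31 windows and 62% in the protein-coding ones. These matches describe letters in the windows and were not tested.

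HNRNPD encodes AUF1, a protein that binds AU-rich elements and controls mRNA decay. Its level was 389, 401 and 387 CPM in WT CDK9 cells, 355, 355 and 381 CPM with the inhibitor, and 271, 311 and 296 CPM with Tyr19Phe (chr4:82352498-82374503). All Tyr19Phe libraries lay below all others, and the inhibitor libraries below the WT CDK9 libraries. Tyr19Phe gave a log2 fold change of -0.42 (SE 0.045, edgeR adjusted p = 1.5e-08), while the inhibitor gave -0.11 (SE 0.045, adjusted p = 0.214). HNRNPDL, its close relative, lies 48.1 kb from it on the same strand (chr4:82422564-82430408). Its level was 319, 289 and 313 CPM in WT CDK9 cells, 285, 288 and 299 CPM with the inhibitor, and 253, 261 and 262 CPM with Tyr19Phe. Here too the Tyr19Phe libraries were the lowest of the 9, and the other groups overlapped. HNRNPDL fell by 0.25 with Tyr19Phe (SE 0.043, adjusted p = 7.33e-05).

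The genes around this pair were lower as well. Of the 40 other tested genes within 5 Mb of HNRNPD, HNRNPDL included, 34 had a log2 fold change below 0 with Tyr19Phe, 15 fell and 0 rose, with a median of -0.26. HNRNPDL, at -0.25, sat at that median, and HNRNPD was 0.17 below it. The neighbours included ENOPH1 at -0.46, COPS4 at -0.93 and SEC31A at -0.24. HNRNPF lay in a region of the opposite sign, where the 55 neighbours had a median of 0.26, with 8 called higher and 0 lower, and HNRNPF at 0.14 was 0.12 below that median. Around SRSF5 the median of 78 neighbours was -0.13, with 18 called lower and 0 higher. The part of these regional differences in the values of HNRNPD, HNRNPDL, HNRNPF and SRSF5 was not tested. Around HNRNPA1, HNRNPC, HNRNPH1, HNRNPA2B1, HNRNPK, SRSF3 and SRSF12, the medians lay between 0.02 and 0.04.

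**Figure D3:**
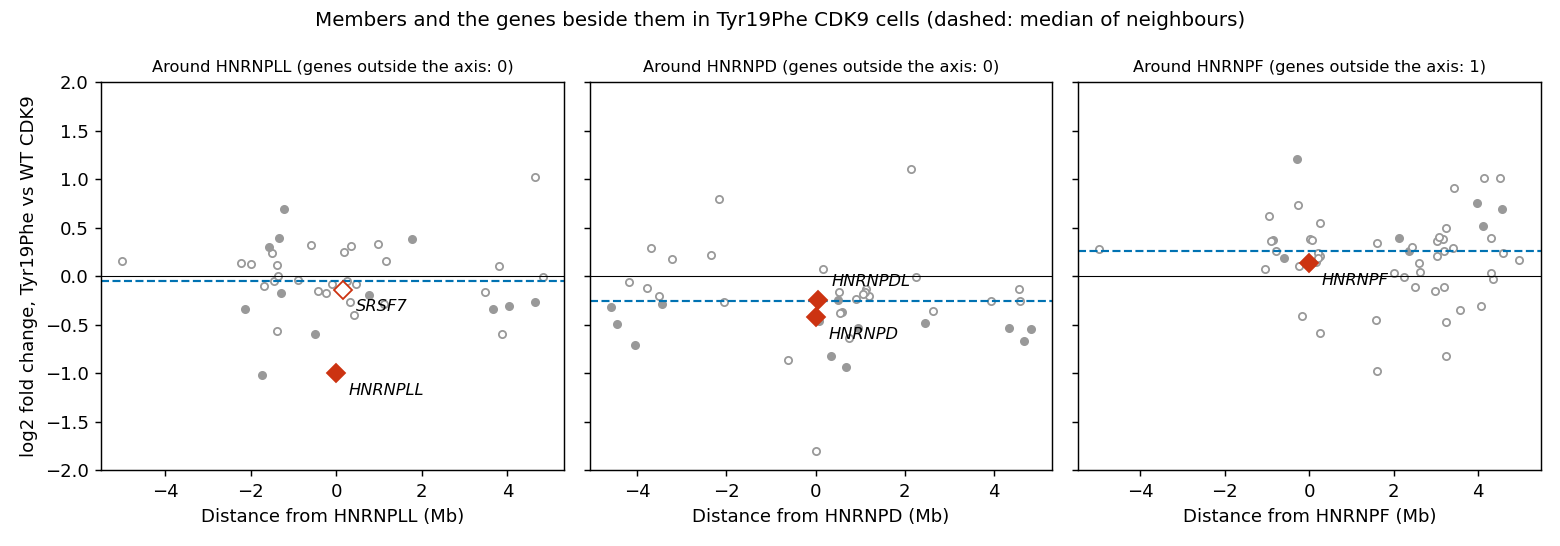
Log2 fold change of Tyr19Phe against WT CDK9 cells for tested genes within 5 Mb of HNRNPLL, HNRNPD and HNRNPF, by distance in Mb, with red diamonds for SR protein and hnRNP genes, filled symbols for an adjusted p under 0.05 and the dashed line at the median of the neighbours. HNRNPLL at -1.002 lies away from its neighbours' median of -0.05, while HNRNPDL at -0.25 lies on the median of its region.

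HNRNPA1, an abundant repressor of exon inclusion, was 985, 1012 and 987 CPM in WT CDK9 cells, 931, 866 and 912 CPM with the inhibitor, and 767, 849 and 841 CPM with Tyr19Phe (chr12:54280193-54287088). The 3 groups did not overlap, with WT CDK9 highest and Tyr19Phe lowest. For Tyr19Phe the log2 fold change was -0.28 (SE 0.038, edgeR adjusted p = 1.22e-06). The gene has 75 listed pseudogenes, which together held 2.38% as many counts, and 32.7% of its 50-base windows occurred in transcripts of other genes, so its count is uncertain. HNRNPA2B1, a close paralogue, was 1089, 1033 and 1009 CPM in WT CDK9 cells, 1002, 1047 and 1026 CPM with the inhibitor, and 869, 985 and 952 CPM with Tyr19Phe (chr7:26173057-26201529). Only the Tyr19Phe libraries lay apart from WT CDK9, and the difference was -0.16 (SE 0.039, adjusted p = 0.00361). None of its windows was found in another gene, although CBX3 and NFE2L3 overlap it on the other strand. HNRNPA3, of the same group, gave -0.08 (SE 0.039, adjusted p = 0.192), and HNRNPA0 differed by -0.0033 (SE 0.045, adjusted p = 0.975).

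HNRNPC, which binds uridine tracts and keeps Alu elements out of mature mRNA, was 469, 476 and 454 CPM in WT CDK9 cells, 436, 435 and 463 CPM with the inhibitor, and 398, 410.4 and 412 CPM with Tyr19Phe (chr14:21209136-21269494). Tyr19Phe libraries were the lowest, and the other groups overlapped. HNRNPC had a log2 fold change of -0.20 with Tyr19Phe (SE 0.039, edgeR adjusted p = 3.04e-04). HNRNPK, a KH-domain protein that binds cytosine-rich RNA and DNA, was 800.4, 812 and 741 CPM in WT CDK9 cells, 765, 741 and 768 CPM with the inhibitor, and 709, 739 and 691 CPM with Tyr19Phe (chr9:83968083-83980616). Its highest Tyr19Phe library lay just below its lowest WT CDK9 library, and the log2 fold change was -0.14 (SE 0.038, adjusted p = 0.00897). Windows shared with other genes, mostly pseudogenes, made up 16.1% of HNRNPC and 13.5% of HNRNPK. Without WT CDK9 replicate 1, WT CDK9 replicate 2 or Tyr19Phe replicate 3, HNRNPK was no longer called (adjusted p up to 0.0818).

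HNRNPH1 and HNRNPF are paralogues that bind runs of guanines, and they moved in opposite directions with Tyr19Phe. HNRNPH1 was 467, 455 and 433 CPM in WT CDK9 cells, 409.7, 389 and 410.4 CPM with the inhibitor, and 377, 390.2 and 419.6 CPM with Tyr19Phe (chr5:179614178-179634784). All treated and mutant libraries lay below all WT CDK9 libraries, and HNRNPH1 fell by 0.19 with Tyr19Phe (log2, SE 0.042, edgeR adjusted p = 0.0012). HNRNPF was 259, 269 and 262 CPM in WT CDK9 cells, 253, 258 and 253 CPM with the inhibitor, and 279.6, 303 and 287 CPM with Tyr19Phe (chr10:43385617-43409166). Its Tyr19Phe libraries were the highest of the 9, and its log2 fold change was 0.14 (SE 0.042, adjusted p = 0.0191). That call was lost without WT CDK9 replicate 1, WT CDK9 replicate 3 or Tyr19Phe replicate 2 (adjusted p up to 0.119). HNRNPH2 stood at 53.8 ± 1.73 CPM in WT CDK9 cells, 62.9 ± 2.72 with the inhibitor and 61.0 ± 4.64 with Tyr19Phe (mean ± SD, n = 3). Neither comparison passed the test for it (log2 0.23 and 0.18, adjusted p = 0.0795 and 0.0839), although both groups lay wholly above WT CDK9. HNRNPH3 gave -0.08 in both comparisons (adjusted p = 0.623 and 0.395).

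**Figure D4:**
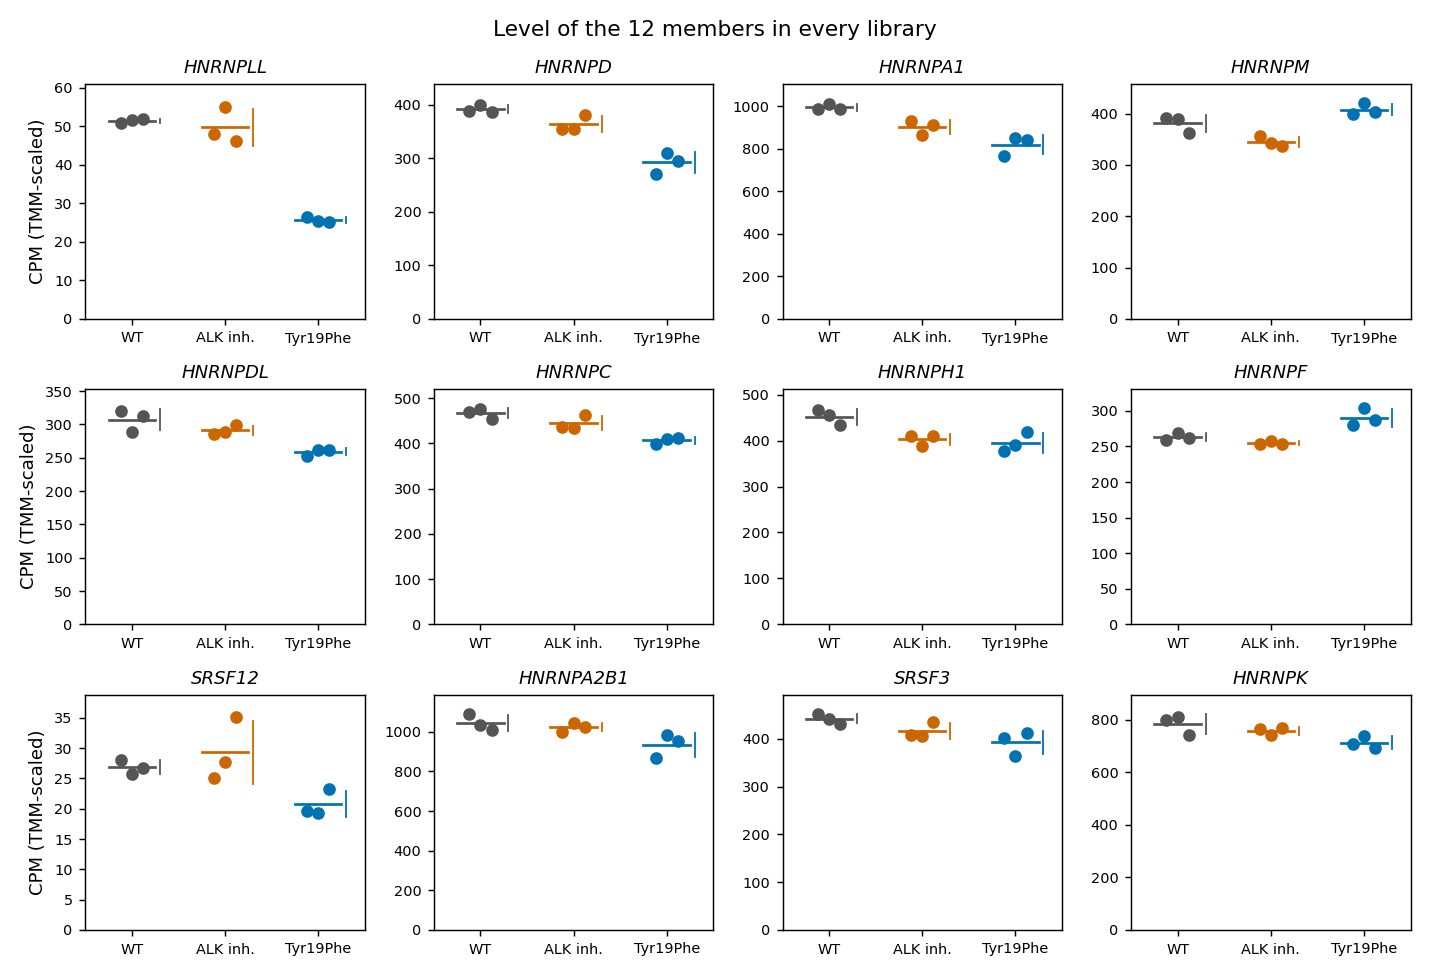
CPM, scaled by TMM, of the 12 genes with the smallest adjusted p-values, with a point for each library, a horizontal line at the group mean and a vertical bar of 1 SD either side. The Tyr19Phe libraries of HNRNPLL lie between 25.1 and 26.5 CPM, below all WT CDK9 libraries, while those of HNRNPF and HNRNPM are the highest of their genes.

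Among the 12 SR proteins, SRSF3, a small family member that also acts in mRNA export, was 452, 442 and 432 CPM in WT CDK9 cells, 408, 406 and 435 CPM with the inhibitor, and 401, 365 and 412 CPM with Tyr19Phe (chr6:36594353-36605600). The Tyr19Phe libraries lay below those of WT CDK9, with a log2 fold change of -0.17 (SE 0.043, edgeR adjusted p = 0.00433). SRSF12, a low-level relative of SRSF10, was 28.0, 25.7 and 26.7 CPM in WT CDK9 cells, 25.1, 27.7 and 35.1 CPM with the inhibitor, and 19.7, 19.4 and 23.2 CPM with Tyr19Phe (chr6:89095959-89118081). The Tyr19Phe libraries were the lowest, and 1 inhibitor library stood above the rest. Its log2 fold change with Tyr19Phe was -0.37 (SE 0.115, adjusted p = 0.0212). SRSF5, at 206 ± 7.77 CPM in WT CDK9 cells and 183 ± 1.26 CPM with Tyr19Phe (mean ± SD, n = 3), gave -0.17 (SE 0.052, adjusted p = 0.0185). Leaving out 1 library ended each of these calls in some fits. SRSF3 was not called without Tyr19Phe replicate 2 (adjusted p = 0.0742). SRSF12 was not called without WT CDK9 replicate 1 or 3 or Tyr19Phe replicate 1 or 2 (up to 0.104). SRSF5 was not called without WT CDK9 replicate 1 or 3 or Tyr19Phe replicate 1 or 3 (up to 0.118). HNRNPA2B1 was likewise lost without WT CDK9 replicate 1 or Tyr19Phe replicate 1 (up to 0.058).

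The other 9 SR proteins were not called in any comparison. SRSF1, the founding member of the family, was 114 ± 5.47 CPM in WT CDK9 cells, 103 ± 9.17 with the inhibitor and 111 ± 7.52 with Tyr19Phe (mean ± SD, n = 3). SRSF2, which shares the recognition of exonic enhancers, was 269.9 ± 15.1, 257 ± 16.2 and 254 ± 7.92 CPM in the same order. Their log2 fold changes were -0.15 and -0.07 with the inhibitor and -0.04 and -0.09 with Tyr19Phe, and the groups overlapped. Together, 20 of the 34 genes were called in no comparison, and their log2 fold changes spanned -0.15 to 0.23 for the inhibitor and -0.16 to 0.18 for Tyr19Phe. The widest standard errors were those of HNRNPA1L2 and HNRNPA1P48, at 3.2 and 9.84 CPM in WT CDK9 cells, which share 100% and 51.6% of their windows with other genes, so small differences were not detectable there.

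The comparison of the ALK inhibitor with untreated WT CDK9 cells asks how the same genes stand after 24 h of treatment. Here 3 of the 34 genes fell and 0 rose by edgeR's quasi-likelihood test, beside 2.73% and 1.82% of all tested genes, and 300 and 186 of the 4795 with at least 50 CPM. DESeq2 also called 3 lower and 0 higher, and at an unadjusted p under 0.05 there were 9 and 1. The 3 were HNRNPH1 at -0.17 (log2, SE 0.043, adjusted p = 0.0168), HNRNPA1 at -0.14 (SE 0.038, adjusted p = 0.0255) and HNRNPM at -0.14 (SE 0.041, adjusted p = 0.0376). No SR protein was called. The differences were small but mostly of the same sign, with 29 of the 34 below 0 and 5 above. Of all tested genes 50.3% were below and 49.7% above 0, and of those with at least 50 CPM 54.9% were below. The median was -0.07, beside -0.001 for all tested genes and -0.01 for those with at least 50 CPM. For 7 genes the inhibitor libraries lay wholly below WT CDK9 and for 1, HNRNPH2, wholly above, where all tested genes gave 10.3% and 9.31%. Among the 4795 with at least 50 CPM, 835 lay wholly below and 590 wholly above. The 7 were HNRNPA1, HNRNPA3, HNRNPAB, HNRNPD, HNRNPF, HNRNPH1 and HNRNPM. The 3 that fell and the 7 that lay wholly below are near the shares at 50 CPM or more and are no result about the 34.

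All 3 inhibitor calls rested on particular libraries. The count was 0 without WT CDK9 replicate 1, WT CDK9 replicate 2 or inhibitor replicate 2, and also 0 when inhibitor replicate 2 and Tyr19Phe replicate 3 were left out together. HNRNPA1 lost its call in 5 of the 6 fits that left out a library of these groups, HNRNPM in 4 and HNRNPH1 in 3, with edgeR adjusted p-values up to 0.218, 0.237 and 0.155. The number of genes below 0 stayed between 26 and 29 in those fits. Both comparisons used the same WT CDK9 libraries, so their values are set side by side without a measure of likeness. HNRNPA1 and HNRNPH1 fell in both, which is 2 of the 3 genes that fell with the inhibitor and 2 of the 11 that fell with Tyr19Phe. Joint falls were not counted outside the family, and the common WT CDK9 libraries can by themselves produce some. The overlap is therefore no result about the 34 genes. None of the 34 was called in opposite directions.

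HNRNPM, which binds GU-rich RNA and takes part in the splicing switches of epithelial and mesenchymal cells, differed between the inhibitor and Tyr19Phe. It was 392, 389.6 and 361 CPM in WT CDK9 cells, 356, 342 and 337 CPM with the inhibitor, and 399, 420.3 and 404 CPM with Tyr19Phe (chr19:8444767-8489114). The inhibitor libraries were the lowest and the Tyr19Phe libraries the highest of the 9. Against WT CDK9, Tyr19Phe gave 0.10 (SE 0.041, edgeR adjusted p = 0.101), and the direct contrast of Tyr19Phe with the inhibitor gave 0.24 (SE 0.041, adjusted p = 3.96e-05).

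The direct contrast tests whether the genes stood at different levels in Tyr19Phe CDK9 and inhibitor-treated cells. With Tyr19Phe, 7 of the 34 genes were lower and 3 higher by edgeR's quasi-likelihood test, beside 11.1% and 9.57% of all tested genes. Of the 4795 tested genes with at least 50 CPM, 983 were lower and 821 higher. The groups lay apart for 9 lower and 3 higher genes, beside 17.7% and 16.7% of all tested genes. Among those with at least 50 CPM, 1324 and 1090 lay apart. Both counts of lower genes lie near the shares at that level and are no result about the 34. Below 0 were 20 of the 34, beside 49.7% of all tested genes, and above it 14, beside 50.3%. Of those with at least 50 CPM 53.1% were below. The lower genes were HNRNPLL (-0.95, SE 0.084, adjusted p = 2.83e-10), HNRNPD (-0.31, SE 0.045, adjusted p = 2.83e-06), SRSF12 (-0.50, SE 0.115, adjusted p = 0.00161), HNRNPDL (-0.17, SE 0.043, adjusted p = 0.00478), HNRNPA1, HNRNPA2B1 and HNRNPC. The last 3 gave -0.14, -0.13 and -0.13. The higher genes were HNRNPM, HNRNPF (0.18, SE 0.042, adjusted p = 0.00154) and HNRNPUL1 (0.13, SE 0.040, adjusted p = 0.0233). In this contrast the neighbours of HNRNPF within 5 Mb had a median of 0.30, with 17 called higher and 1 lower. Around HNRNPD and around HNRNPDL the median was -0.27, with 20 called lower and 1 higher. The part of these regional differences in the values of HNRNPF, HNRNPD and HNRNPDL was not tested. HNRNPUL1, a relative of the scaffold attachment factor HNRNPU, was 502 ± 11.9 CPM in WT CDK9 cells, 478 ± 12.5 with the inhibitor and 522 ± 29.5 with Tyr19Phe (mean ± SD, n = 3). Its call was lost without inhibitor replicate 2 or 3 or Tyr19Phe replicate 3 (adjusted p up to 0.179). The number of lower genes was 4 without Tyr19Phe replicate 1, where HNRNPA1, HNRNPA2B1 and HNRNPC were no longer called. HNRNPA1 also lost its call without inhibitor replicate 1, HNRNPA2B1 without inhibitor replicate 2 and HNRNPC without inhibitor replicate 3. Of the 10 genes called with Tyr19Phe and not with the inhibitor, the direct contrast separated HNRNPA2B1, HNRNPC, HNRNPD, HNRNPDL, HNRNPF, HNRNPLL and SRSF12, and did not pass for HNRNPK (-0.09, adjusted p = 0.102), SRSF3 (-0.08, adjusted p = 0.181) or SRSF5 (-0.06, adjusted p = 0.507).

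The genes that act with these families were taken from 6 lists, of which 126 of 136 genes were tested. With the inhibitor 4 were called lower and 1 higher, where 2.73% and 1.82% of all tested genes were. With Tyr19Phe 17 were lower and 7 higher, where 10.4% and 7.61% of all tested genes were, and in the direct contrast 14 and 22, beside 11.1% and 9.57%. The counts in both comparisons with WT CDK9 lie near those shares and are no result about the lists. Of the 4795 tested genes with at least 50 CPM, 983 were lower and 821 higher in the direct contrast. There the 14 lie near the share of all tested genes and the 22 near that at 50 CPM or more. Neither count is a result about the lists. The medians were -0.03, -0.02 and 0.01, beside -0.001, 0.0035 and 0.0018 for all tested genes. Of the 11 SR protein kinases and importer genes, none was called with the inhibitor and 2 fell with Tyr19Phe, with medians of 0.03 and 0.01. Against the 10.4% of all tested genes that fell with Tyr19Phe, a count of 2 in a list of 11 says nothing about the list. The 2 were DYRK1A, at 89.8 ± 4.53 CPM in WT CDK9 cells and 72.6 ± 4.06 with Tyr19Phe (mean ± SD, n = 3), a log2 fold change of -0.31 (SE 0.064, edgeR adjusted p = 6.25e-04), and SRPK2 (-0.27, SE 0.078, adjusted p = 0.0121). Of 28 SR-related proteins, 3 fell with Tyr19Phe: TRA2B (-0.15, adjusted p = 0.0155), an activator that binds GAA-rich enhancers, THRAP3 (-0.16, adjusted p = 0.0103) and SON (-0.11, adjusted p = 0.032), a scaffold of nuclear speckles. Their share is close to the 10.4% of all tested genes, and the list's median was 0.0001. The count of 3 was 0 without WT CDK9 replicate 1 and 1 without Tyr19Phe replicate 3, and the count of 2 kinases was 1 without either of these libraries. Of 17 proteins of hnRNP type under other symbols, 3 fell with Tyr19Phe, with a list median of -0.06: PTBP3 (-0.27, SE 0.041, adjusted p = 7.33e-06), SYNCRIP (-0.18, SE 0.038, adjusted p = 9.96e-04) and RBMX (-0.14, SE 0.044, adjusted p = 0.0263). Single libraries decided several of these calls. RBMX was not called without WT CDK9 replicate 1 or Tyr19Phe replicate 2 or 3 (adjusted p up to 0.236), SRPK2 and THRAP3 without WT CDK9 replicate 1 or Tyr19Phe replicate 3 (up to 0.121 and 0.0985). TRA2B was not called without WT CDK9 replicate 1 or 2 or Tyr19Phe replicate 1 (up to 0.101), and SON without WT CDK9 replicate 1 or 3 or Tyr19Phe replicate 2 or 3 (up to 0.152). PTBP1, the pyrimidine tract repressor, fell with the inhibitor (-0.12, adjusted p = 0.0472) and gave 0.01 with Tyr19Phe (adjusted p = 0.908).

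Of the other regulators of alternative splicing 22 were tested, and 6 fell and 2 rose with Tyr19Phe, where 10.4% and 7.61% of all tested genes did. The list median was -0.06. The 6 lie near the share of genes with at least 50 CPM, of which 1004 of 4795 fell. The 2 lie near the share of all tested genes, and neither count is a result about the list. QKI, a STAR-family RNA-binding protein, was 489 ± 4.35 CPM in WT CDK9 cells, 488 ± 7.81 with the inhibitor and 361 ± 13.1 with Tyr19Phe (mean ± SD, n = 3), and its log2 fold change with Tyr19Phe was -0.44 (SE 0.038, edgeR adjusted p = 2.72e-10). RBM47, a regulator found in epithelial cells, was 17.6 ± 1.98, 18.4 ± 1.86 and 7.16 ± 0.987 CPM in that order, a log2 fold change of -1.30 (SE 0.144, adjusted p = 3.44e-08). RBFOX2, which binds UGCAUG, rose from 223 ± 2.41 to 257 ± 3.04 CPM (0.21, SE 0.042, adjusted p = 5.28e-04). Each fit that left out 1 library gave a smaller number of falls in this list, between 2 and 5. It was 2 without WT CDK9 replicate 3 and 3 without Tyr19Phe replicate 3. Of 33 core snRNP and branch site proteins, 1 fell (SNRPG) and 5 rose with Tyr19Phe: SNRPB (0.40, SE 0.061, adjusted p = 1.07e-05), SF3A1 (0.32, SE 0.045, adjusted p = 2.49e-06), SF3B4 (0.30, SE 0.048, adjusted p = 2.1e-05), SF3A2 and SNRPD3. The median of that list was -0.02. All tested genes gave 10.4% lower and 7.61% higher, and of the 4795 with at least 50 CPM 1004 fell and 628 rose. The 5 that rose lie near the share at 50 CPM or more and are no result about the list. Of 15 genes of nonsense-mediated decay and the exon junction complex, SMG1, the kinase that phosphorylates UPF1, fell with Tyr19Phe (-0.29, SE 0.039, adjusted p = 9.96e-07) and with the inhibitor (-0.16, SE 0.039, adjusted p = 0.0116). MAGOH also fell with Tyr19Phe (-0.33, SE 0.112, adjusted p = 0.0344). The share of this list that fell is close to that of all tested genes, and its median was -0.001. The count of 2 for this list was 1 without WT CDK9 replicate 2 or 3 or Tyr19Phe replicate 1 or 3, and 1 with DESeq2. SNRPG was lost without WT CDK9 replicate 3 or Tyr19Phe replicate 1, which left 0 of its list lower. The remaining inhibitor calls were RBM25 and SNRPE lower and NOVA2 higher. Counts of 1 with the inhibitor fell to 0 in 5 of the 6 fits without 1 library for PTBP1, in 5 for NOVA2, in 6 for SNRPE and in 2 for SMG1.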

How the data were processed

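RNA of SKOV3 cells was sequenced by a service provider, and reads were aligned to hg38. The authors deposited whole-number read counts per gene and library, without normalization, beside gene identifier, symbol, biotype, position and length. The submitters' processing notes name CASAVA, HISAT2 2.0.5, featureCounts 1.5.0-p3 and hg38 (GRCh38), and the annotation and strand setting are not given in the sources used here, so reads of overlapping genes on opposite strands cannot be told apart. Groups and replicate numbers came from the labels, and all 9 count columns were used.

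Genes were kept by edgeR's filterByExpr (minimum count 10, minimum total 15), scaled by TMM and fitted with edgeR 4.0.16 in R 4.3.3, with 1 mean per group over all 9 libraries and 6 residual degrees of freedom. Quasi-likelihood F tests of 3 contrasts were adjusted by the Benjamini-Hochberg method over 16350 genes. Standard errors are the log2 fold change divided by the square root of F. Alternatives were DESeq2 1.42.0, other scalings, filters and thresholds, protein-coding genes only, the compared groups only, thinning of every library to 18169050 counts, a replicate block and each library left out in turn. Same-numbered libraries did not deviate together (correlations between -0.0116 and 0.026), so they were not paired. Figures used Python 3.11.15 and matplotlib 3.10.9. The code was tested on simulated counts.

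The member genes and the lists were chosen with earlier results of these data known. Full values are given for the 12 called members with the smallest adjusted p in any comparison, and from each list for up to 3 genes with the smallest adjusted p called in a comparison with WT CDK9. Other genes named were chosen after their values were seen. Shared sequence is the share of 50-base windows of the GENCODE 44 canonical transcript found in transcripts of other genes, and all 39 members were matched by identifier. Promoter windows are RefSeq's, found for 35 of the 39 members. The precision of every value is limited by 3 libraries per group.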

Additional observations from a re-analysis of the deposited data

How the results depend on the processing

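With the inhibitor, the number of member genes called lower (3) was 0 with library size alone, 0 at an adjusted p under 0.01, 9 at an unadjusted p under 0.05, between 0 and 3 without 1 library, and 0 without inhibitor replicate 2 and Tyr19Phe replicate 3 together, an alternative chosen after seeing the data. The number called higher (0) was 1 with library size alone and 1 at an unadjusted p. With Tyr19Phe, the number called higher (1) was 2 with upper quartile scaling, 3 with library size alone, 0 at an adjusted p under 0.01, 3 at an unadjusted p, and between 0 and 1 without 1 library, and the number called lower (11) was between 7 and 10 without 1 library. In the direct contrast, the number called lower (7) was between 4 and 7. HNRNPLL, HNRNPD, HNRNPA1, HNRNPDL, HNRNPC and HNRNPH1 kept their fall with Tyr19Phe under all 17 other fits. HNRNPM passed with Tyr19Phe under upper quartile scaling (0.12, adjusted p = 0.0396) and library size alone (0.12, adjusted p = 0.0311). The scalings moved the median of all genes to at most 0.0295.

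Reversed values were all of differences not called. With the inhibitor QKI gave 0.0072 with upper quartile scaling, 0.0225 with library size alone and -0.0088 to 0.0128 without 1 library. Without 1 library, the inhibitor ranges that crossed 0 were -0.12 to 0.0018 for HNRNPLL, -0.0242 to 0.23 for SRSF12, -0.047 to 0.0085 for HNRNPA2B1, -0.0185 to 0.0521 for DYRK1A and -0.0218 to 0.13 for RBM47, and DYRK1A gave -0.0104 without the pair of libraries. In the direct contrast the ranges were -0.068 to 0.0054 for HNRNPH1 and -0.10 to 0.0205 for SRSF5. Of 798 values of the 14 called members under alternatives, 727 kept direction and side of the threshold, 59 lost the call, 7 gained it and 5 reversed. With the replicate block, the inhibitor comparison gave 3 lower and 0 higher, Tyr19Phe 11 and 1, and the direct contrast 7 and 3, so the block changed no count. The causes were not tested.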
